A study of Mus musculus with 4 samples.

Results

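The nuclear genes that encode subunits of the respiratory chain and of the ATP synthase were examined in the blood of mice treated with naringenin (Nar), a flavonoid. Genes were selected by symbol: the Nduf genes of the series a, b, c, s and v, Sdha to Sdhd, the Uqcr genes, the Cox genes numbered 4 to 8 and the Atp5 genes. Of 87 matching symbols, 82 had values, out of 17823 genes with values in the series. They comprised 37 genes of complex I, 4 of complex II, 8 of complex III, 17 of complex IV and 16 of complex V, the ATP synthase. Atp5a1, Cox7b2, Ndufa11b, Ndufa4l2 and Ndufb4b were blank in every library and were not analysed here.

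Blood mRNA of C57BL/6 mice, captured with oligo(dT) beads, was sequenced in 4 libraries. Ctrl 1 and Ctrl 3 came from mice given phosphate-buffered saline (PBS) over 30 days, and Nar 1 and Nar 3 from mice given Nar over the same 30 days. The labels call the mice adult, the study describes them as aging, and no group carried a genetic change. The labels do not say that each library was a separate animal, so p-values measure the spread between these libraries. Values are FPKM, fragments per kilobase of transcript scaled to the fragments mapped in a library, with 2 decimals. The read depth behind them is unknown, which leaves counting error out of reach.

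The respiratory chain lies in the inner mitochondrial membrane. Complexes I and II pass electrons from NADH and succinate to ubiquinone, complex III passes them to cytochrome c and complex IV to oxygen. Complexes I, III and IV pump protons, and complex V uses the proton gradient to make ATP. Complexes I, III, IV and V combine nuclear subunits with subunits of the mitochondrial genome, while complex II is encoded in the nucleus alone. Mature red cells have no mitochondria, whereas reticulocytes, platelets and white cells do.

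The blood label was checked against marker genes. Haemoglobin genes took 92.6% to 96.4% of the summed FPKM, and 5 muscle marker genes together reached 0.06 to 0.44 FPKM per library. Outside haemoglobin, FPKM summed to 74795 and 109426 in Ctrl 1 and Ctrl 3, and 65959 and 56938 in Nar 1 and Nar 3. In bulk blood, fewer cells of a type and less RNA per cell cannot be told apart. The members' summed FPKM was 592 and 1080 in Ctrl 1 and Ctrl 3, and 545 and 432 in Nar 1 and Nar 3. Ctrl 3 was the highest, and the 2 Nar libraries lay below Ctrl 1. As a share of FPKM outside haemoglobin, the members took 0.792% and 0.983% in Ctrl 1 and Ctrl 3, and 0.826% and 0.759% in Nar 1 and Nar 3, so on this scale the groups overlapped.

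Ctrl 3 stood apart from Ctrl 1 for these genes. It was the higher control for 60 of the 74 members tested and higher by more than 1 on the log2 scale for 22 of them (29.7%), against 15.8% of all tested genes. The median difference, Ctrl 3 minus Ctrl 1, was 0.59 for the members and 0.13 for all tested genes. It was 0.95 in complex IV, 0.62 in complex I, 0.47 in complex V, 0.29 in complex III and 0.06 in complex II. The platelet markers Pf4, Ppbp, Itga2b, Gp9, Gp1ba and Tubb1 also summed to 2170 FPKM in Ctrl 3, against 649 in Ctrl 1, 584 in Nar 1 and 424 in Nar 3, with a median difference between the controls of 1.87. Erythroid genes other than haemoglobin had a median difference of 0.73, and monocyte markers one of -1.34. Whether RNA of platelets or other cells had a part in the members' values was not tested.

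Most nuclear subunit genes were listed at lower values with Nar, as most genes of the blood were. Of the 74 members with a mean of at least 0.5 FPKM, 17 (23.0%) passed the test as lower in Nar blood, whereas 39.6% of all 5339 tested genes did. In limma 0 members passed as higher, against 0.187% of all tested genes, and 0 did at an unadjusted p-value under 0.05, against 0.318%. By complex the calls numbered 13 of 36 genes in complex I (36.1%, close to the share of all tested genes), 3 of 4 in complex II, 1 of 8 in complex III, 0 of 12 in complex IV and 0 of 14 in complex V, and the complexes were not tested against each other. At an unadjusted p-value under 0.05, 29 members were lower, and 56.5% of all tested genes were.

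The median log2 fold change, computed on log2(FPKM + 0.1), was -0.93 for the members and -1.07 for all tested genes. The difference of 0.14 was smaller than an SD of 0.342 between replicates. That SD was taken on a related measure, each library's median log2 level of the members relative to all tested genes. By complex the median log2 fold change was -1.02 for complex I, -1.38 for complex II, -0.75 for complex III, -0.72 for complex IV and -0.64 for complex V. Set against the median of all tested genes, complex I lay at 0.05, complex II at -0.30, complex III at 0.32, complex IV at 0.36 and complex V at 0.44. These distances depended on the pseudocount. With a pseudocount of 1 complexes III, IV and V stood at -0.60, -0.66 and -0.57, close to the -0.62 of all tested genes. The members' distance was then 0.01. With median-of-ratios scaling of the libraries, which levels the typical gene, the members' median turned to 0.22, 53 of the 74 lay above 0 in place of 2, and 0 passed the test, with a smallest limma adjusted p-value of 0.098. On that scale 2666 of all 5339 tested genes lay above 0. Of all tested genes 0.599% then passed as lower and 0.187% as higher. Complex II kept a median below 0 on that scale, at -0.30, whereas complexes I, III, IV and V stood at 0.07, 0.39, 0.44 and 0.52.

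**Figure D1:**
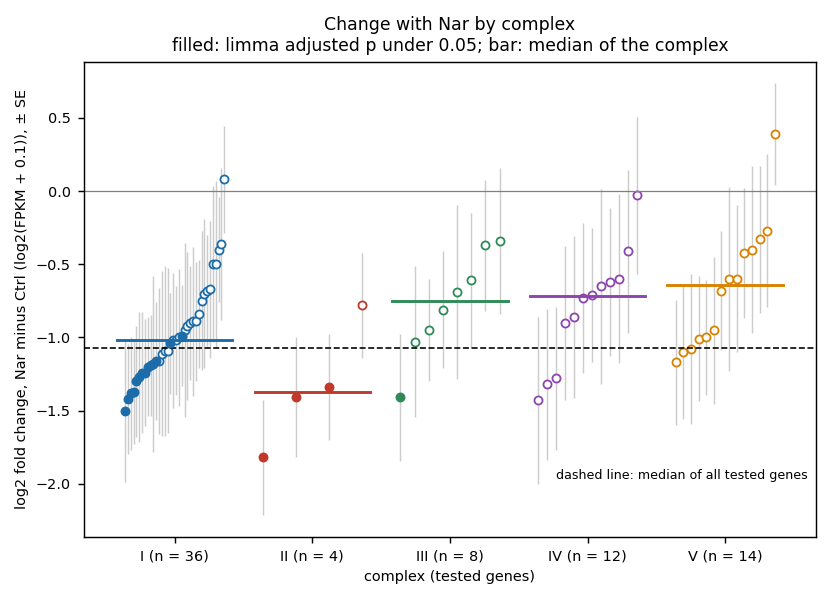
Log2 fold change of each tested gene, Nar minus Ctrl on log2(FPKM + 0.1) (vertical axis), by complex (horizontal axis), with the standard error as a bar. Filled points passed limma at an adjusted p-value under 0.05, coloured lines are medians of the complexes and the dashed line at -1.07 is the median of all tested genes. The filled points lie in complexes I, II and III, and the medians of complexes III, IV and V lie above the dashed line.

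Leaving out a library leaves 1 in its group, and few or none of all tested genes then passed, so that the lost calls say nothing of a single library's part. With any 1 of the 4 left out, 0 of the 74 members passed, with 39 lower at an unadjusted p-value under 0.05 without Ctrl 1, 10 without Ctrl 3, 11 without Nar 1 and 11 without Nar 3; of all tested genes 0, 0, 254 and 213 then passed as lower. The fold changes of called genes could stay about as large, as in Sdhb of complex II, which ran from -2.02 to -1.63 on the log2 scale. Without Ctrl 3 the members' median was -0.56, and without Ctrl 1 it was -1.23. Both Nar libraries lay below both controls for 52 members (70.3%), against 78.3% of all tested genes, and above both for 1 member, against 1.27%. The groups overlapped for the other 21. Complex II had the lowest median of the complexes except without Nar 1, when it stood at -1.0 and complex I at -1.12, and the order of complexes III, IV and V changed with the library left out. A single gene in 2 libraries against 2 cannot reach a two-sided p under 0.33 in an exact permutation test.

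**Figure D2:**
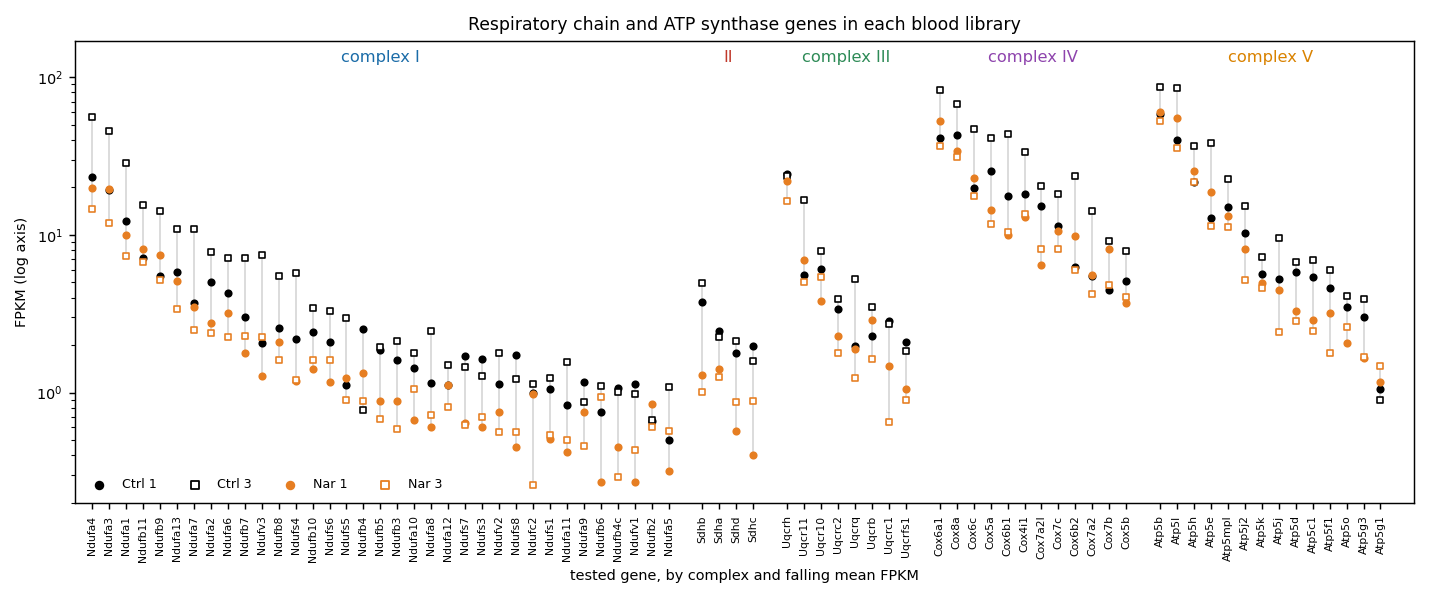
FPKM of tested genes (log axis) in Ctrl 1, Ctrl 3, Nar 1 and Nar 3, by complex and falling mean. The open black squares of Ctrl 3 stand at the top for most genes, above all in complex IV, while in complex II both controls lie above both Nar libraries.

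The promoters of these genes are known to carry sites of the nuclear respiratory factors, NRF1 and the ETS-family factor GABP. RefSeq promoters of the GRCm38.p6 build, 250 bases before to 50 bases after the gene's start, were matched by gene number for 67 members with 72 promoters. The core of the NRF1 palindrome, CGCATGCG, stood in 9 of the 72 (12.5%), in 3.71% of promoters of all tested genes and in 1.87% of all 32851 promoters. The ETS letters CCGGAAGT, on either strand, stood in 5 member promoters (6.94%), in 7.89% of those of tested genes and in 3.89% of all. Among tested members, the 8 with the NRF1 core had a median log2 fold change of -0.88 with 3 lower, and the 54 without it one of -0.94 with 9 lower. The 5 with the ETS letters had a median of -0.69 with 1 lower, and the 57 without them one of -0.95 with 11 lower. These counts were not tested against each other, and 39.6% of all tested genes passed as lower. A match of letters does not show that a factor bound there.

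The sequences below show where these letters fall in members of complexes I, III, IV and V, with the motifs in capitals. Each runs 5′ to 3′ on the gene's strand, from 180 bases before the RefSeq start to 10 bases after it. Ndufa8 (chr2:36049329-36049518, minus strand) and Ndufa11 (chr17:56717582-56717771, plus strand) belong to complex I and passed as lower. Uqcr11 (chr10:80406812-80407001, minus strand) holds both motifs. Cox6a1 (chr5:115348949-115349138, minus strand) and Atp5k (chr5:108434390-108434579, minus strand) hold the NRF1 core and did not pass.
Ndufa8: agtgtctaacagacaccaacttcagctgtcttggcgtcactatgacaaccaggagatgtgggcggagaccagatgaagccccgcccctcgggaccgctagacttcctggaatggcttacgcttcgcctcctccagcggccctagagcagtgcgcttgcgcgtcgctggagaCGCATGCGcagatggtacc
Ndufa11: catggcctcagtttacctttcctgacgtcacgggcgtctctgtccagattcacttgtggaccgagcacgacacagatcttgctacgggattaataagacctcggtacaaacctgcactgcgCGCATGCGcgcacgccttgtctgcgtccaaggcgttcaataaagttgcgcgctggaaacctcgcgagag
Uqcr11: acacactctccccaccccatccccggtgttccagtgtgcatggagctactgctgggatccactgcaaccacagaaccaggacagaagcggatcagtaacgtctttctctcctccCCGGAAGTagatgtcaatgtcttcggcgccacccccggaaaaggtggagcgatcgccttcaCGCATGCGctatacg
Cox6a1: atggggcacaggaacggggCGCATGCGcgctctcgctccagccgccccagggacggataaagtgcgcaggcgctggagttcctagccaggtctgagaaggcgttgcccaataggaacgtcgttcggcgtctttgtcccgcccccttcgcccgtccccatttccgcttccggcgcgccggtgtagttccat
Atp5k: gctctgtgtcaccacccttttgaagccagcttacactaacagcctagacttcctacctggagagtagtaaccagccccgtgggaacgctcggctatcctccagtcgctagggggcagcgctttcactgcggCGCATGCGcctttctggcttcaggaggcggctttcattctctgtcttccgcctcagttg

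In Ndufa8 the core began 9 bases before the start and in Uqcr11 5 bases before it, while in Cox6a1 it began 161 bases before. Ndufa8 was listed at 1.15 and 2.45 FPKM in Ctrl 1 and Ctrl 3, and 0.60 and 0.72 in Nar 1 and Nar 3, a log2 fold change of -1.24 (SE, the standard error, 0.415, limma adjusted p = 0.0443). Both Nar values lay below both control values. The log2 fold change of Ndufa8 was -0.72 without Ctrl 3, -1.75 without Ctrl 1 and -0.17 with median-of-ratios scaling, and it did not pass in limma with a pseudocount of 1 (adjusted p = 0.0651) or without the trend of variance with level (adjusted p = 0.0617). Ndufa11 did not pass in limma under these settings either (adjusted p = 0.064 and 0.0629), and its log2 fold change of -1.16 was -0.74 without Ctrl 3. Nrf1 itself, the gene of the factor, was at 1.35 and 1.11 FPKM in the controls and at 0.50 and 0.30 with Nar, a log2 fold change of -1.43 (limma adjusted p = 0.0248), and it stood in a series whose tested genes had a median of -1.07.

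Complex I, NADH dehydrogenase, is the largest complex, with a catalytic core and many accessory subunits. Its 36 tested genes had median FPKM values of 1.80 and 2.28 in Ctrl 1 and Ctrl 3, and 1.12 and 0.885 in Nar 1 and Nar 3. Both Nar libraries lay below both controls for 26 of them (72.2%), against 78.3% of all tested genes, and log2 fold changes ran from -1.50 to 0.08. As a share of FPKM outside haemoglobin, complex I took 0.172% and 0.238% in the controls and 0.157% and 0.142% with Nar, without overlap. With haemoglobin removed and the rest rescaled, its median log2 fold change was -0.54, against -0.61 for all tested genes. The 13 genes that fell included Ndufs4, Ndufs8, Ndufv1, Ndufa2, Ndufa8, Ndufa11, Ndufb3, Ndufb4c and Ndufb5. Ndufb4c shares sequence with Ndufb4, so that reads may have been split between them. Ndufc1 had a mean under 0.5 FPKM and was not tested, with 0.22 and 0.23 FPKM in the controls and 0.44 in each Nar library.

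The lowest fold change of complex I was that of Ndufs4. Ndufs4 (NCBI Gene 17993, chr13:114287795-114388094), an accessory subunit whose loss impairs assembly of the complex, was at 2.19 and 5.74 FPKM in Ctrl 1 and Ctrl 3, and 1.18 and 1.20 in Nar 1 and Nar 3. Ctrl 3 stood well above the other 3 libraries. The log2 fold change was -1.50 (SE 0.487, limma adjusted p = 0.0402), and it was -0.83 without Ctrl 3 and -2.18 without Ctrl 1. In limma it did not pass with a pseudocount of 1 (adjusted p = 0.0547) or without the trend (adjusted p = 0.0501). With either of these settings 12 of the 17 calls among the members remained. Calls were also gained, for 13 in all with a pseudocount of 1 and 15 without the trend. Atp5c1 of complex V was gained in both, and Cox5a and Cox7a2l of complex IV without the trend. Of all tested genes 34.2% and 33.5% passed as lower under these settings.

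The core and accessory subunits of complex I were then set side by side, a grouping made after the values were seen. Of the 7 nuclear core subunits, which include those that carry the flavin and the iron-sulfur clusters, 6 fell, Ndufs8 and Ndufv1 among them, with a median log2 fold change of -1.20 over the 7. Of the 29 accessory subunits 7 fell, with a median of -0.95. With a pseudocount of 1, and likewise in limma without the trend, 4 of the 7 and 4 of the 29 passed, and with the replicate block 4 and 6. Of all tested genes 39.6% passed as lower, and the 2 groups of subunits were not tested against each other. The control libraries differed by a median of -0.19, Ctrl 3 minus Ctrl 1, for the core and by 0.84 for the accessory subunits. Without Ctrl 3 the medians were -1.31 and -0.55, and without Ctrl 1 they were -1.12 and -1.37, so that the order of the 2 groups turned. The core subunits had means of 0.702 to 1.79 FPKM and a median SE of 0.361, and the accessory subunits had means of 0.62 to 28.5 FPKM and a median SE of 0.468. Their median transcript lengths were 813 and 572 bases.

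The most abundant genes of complex I were short accessory subunits, and they did not pass the test. Ndufa4, which is now placed with complex IV, was at 23.37 and 56.21 FPKM in Ctrl 1 and Ctrl 3, and 19.72 and 14.62 in Nar 1 and Nar 3 (log2 fold change -1.09, limma adjusted p = 0.136). Ndufa3 was at 19.17, 45.35, 19.60 and 11.89 FPKM in the same order (limma adjusted p = 0.190). Ndufa1 was at 12.16, 28.44, 9.99 and 7.33 FPKM (limma adjusted p = 0.122). In all 3 genes Ctrl 3 was more than double the value of Ctrl 1, and in Ndufa3 the groups overlapped. Ndufb2, a membrane arm subunit, was the only tested gene of complex I with a log2 fold change above 0, with 0.66 and 0.67 FPKM in the controls and 0.84 and 0.60 with Nar (log2 fold change 0.08, limma adjusted p = 0.844).

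Complex II, succinate dehydrogenase, joins the chain to the tricarboxylic acid cycle, and it had the lowest median of the 5 complexes. Its median FPKM was 2.22 and 2.18 in Ctrl 1 and Ctrl 3, and 0.930 and 0.945 in Nar 1 and Nar 3. Both Nar libraries lay below both controls for all 4 genes, as they did for 78.3% of all tested genes. As a share of FPKM outside haemoglobin, complex II took 0.0133% and 0.00994% in the controls and 0.00555% and 0.00706% with Nar, so that its groups did not overlap on this scale, as in complex I. With haemoglobin removed and the rest rescaled, its median log2 fold change was -0.95, against -0.61 for all tested genes.

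Sdhb (NCBI Gene 67680, chr4:140961271-140979198), the iron-sulfur subunit, was at 3.75 and 4.93 FPKM in Ctrl 1 and Ctrl 3, and 1.29 and 1.01 in Nar 1 and Nar 3. The groups did not overlap, and the gap between them was wider than the spread within either. The log2 fold change was -1.82 (SE 0.393, limma adjusted p = 0.0154), the lowest among the 74 tested members, and it lay at -0.75 from the median of all tested genes. With median-of-ratios scaling it was -0.71 and did not pass.

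Sdhc (NCBI Gene 66052, chr1:171129157-171150640) and Sdhd (NCBI Gene 66925, chr9:50596340-50603849) encode the membrane anchors that bind ubiquinone. Sdhc was at 1.97 and 1.58 FPKM in the controls and at 0.40 and 0.88 with Nar, a log2 fold change of -1.41 (SE 0.410, limma adjusted p = 0.0308). Sdhd was at 1.77 and 2.13 FPKM in the controls and at 0.57 and 0.87 with Nar, a log2 fold change of -1.34 (SE 0.363, limma adjusted p = 0.0258). In both genes the Nar libraries stayed below the controls, with Nar 1 the lowest, and without Nar 1 the log2 fold change of Sdhc was -0.93. Sdha (NCBI Gene 66945, chr13:74322255-74350240), the flavoprotein that oxidizes succinate, was at 2.47 and 2.24 FPKM in the controls and at 1.40 and 1.26 with Nar. Its groups did not overlap, but its log2 fold change of -0.78 (SE 0.36) did not pass (limma adjusted p = 0.0973), and with median-of-ratios scaling it turned to 0.33.

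Complex III, the cytochrome bc1 complex, had 1 of 8 tested genes that fell (12.5%), against 39.6% of all tested genes. Uqcrc1, a core protein of its matrix arm, was at 2.86 and 2.73 FPKM in Ctrl 1 and Ctrl 3, and 1.48 and 0.65 in Nar 1 and Nar 3, a log2 fold change of -1.41 (SE 0.434, limma adjusted p = 0.0353) that stood at -0.87 without Nar 3. Uqcrfs1, the Rieske iron-sulfur protein, was at 2.10 and 1.82 FPKM in the controls and 1.05 and 0.89 with Nar (log2 fold change -0.95, limma adjusted p = 0.0555). In both the controls were close and the groups did not overlap.

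The most abundant genes of complex III were small subunits. Uqcrh, the hinge protein, was at 24.34 and 23.68 FPKM in Ctrl 1 and Ctrl 3, and 21.80 and 16.37 in Nar 1 and Nar 3 (log2 fold change -0.34, limma adjusted p = 0.551). Uqcr11 was at 5.53, 16.66, 6.92 and 5.04 FPKM in the same order (log2 fold change -0.69, limma adjusted p = 0.322). Uqcr10 was at 6.09, 7.91, 3.78 and 5.40 FPKM (log2 fold change -0.61, limma adjusted p = 0.267). The groups overlapped in Uqcr11, where Ctrl 3 alone was high, and all 3 fold changes turned positive with median-of-ratios scaling, at 0.83, 0.47 and 0.55.

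Complex IV, cytochrome c oxidase, had the highest median level of the 5 complexes, with a median over its 12 tested genes of 16.4 and 28.5 FPKM in Ctrl 1 and Ctrl 3, and 10.2 and 9.31 in Nar 1 and Nar 3. Ctrl 3 was above Ctrl 1 for all 12, and 0 passed the test. In limma without the trend, Cox5a (adjusted p = 0.0445) and Cox7a2l (adjusted p = 0.0426) passed as lower, where 33.5% of all tested genes did. All 12 had a mean of at least 5 FPKM, and among the 1083 genes at that level, tested alone, 10.7% passed as lower. At an unadjusted p-value under 0.05, 3 of the 12 were lower, against 56.5% of all tested genes. For 7 of the 12 (58.3%) both Nar libraries lay below both controls, against 78.3% of all tested genes.

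Cox6b1 (NCBI Gene 110323, chr7:30616971-30626114), which faces the intermembrane space, had the lowest fold change of complex IV, with 17.49 and 43.45 FPKM in Ctrl 1 and Ctrl 3, and 9.93 and 10.47 in Nar 1 and Nar 3. The Nar libraries were close together and the controls were not, and the log2 fold change of -1.43 (SE 0.572) did not pass (limma adjusted p = 0.0696). Without Ctrl 3 it was -0.77 and without Ctrl 1 -2.08. Cox4i1, the ubiquitous form of a regulatory subunit, was at 18.26, 33.46, 12.99 and 13.45 FPKM in the same order (log2 fold change -0.90, limma adjusted p = 0.166). Cox6a1 was at 40.96, 83.21, 52.60 and 36.56 FPKM (log2 fold change -0.41, limma adjusted p = 0.525).

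Cox8a, the smallest subunit, was at 43.08 and 67.14 FPKM in Ctrl 1 and Ctrl 3, and 33.88 and 31.08 in Nar 1 and Nar 3 (log2 fold change -0.73, limma adjusted p = 0.238). Cox6c was at 19.75, 47.14, 22.83 and 17.61 FPKM (log2 fold change -0.60, limma adjusted p = 0.372). Cox7a2 was at 5.50, 14.25, 5.55 and 4.21 FPKM (log2 fold change -0.86, limma adjusted p = 0.202). In Cox6a1, Cox6c and Cox7a2 the groups overlapped because Nar 1 lay above Ctrl 1. Cox7b had the fold change nearest to 0, with 4.45 and 9.17 FPKM in the controls and 8.13 and 4.82 with Nar (log2 fold change -0.03, limma adjusted p = 0.963).

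Several subunits of complex IV exist as tissue forms, and the form known from most tissues was the one listed in blood. Cox6a2, Cox7a1 and Cox8b, the heart and skeletal muscle forms, reached at most 0.07, 0.26 and 0 FPKM in a library. Cox4i2, the form known from lung, was listed at 0 in 3 libraries and at 0.06 FPKM in Nar 3, and Cox8c, known from testis, was at 0 throughout. All 5 were under the mean of 0.5 FPKM and untested. The exception was Cox6b2, also known from testis, at 6.21 and 23.58 FPKM in Ctrl 1 and Ctrl 3, and 9.86 and 6.01 in Nar 1 and Nar 3 (log2 fold change -0.65, limma adjusted p = 0.406). Cox6b1 and Cox6b2 are alike in sequence, so reads may have been shared between them.

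Complex V, the ATP synthase, had the highest median fold change of the 5 complexes and 0 calls among 14 tested genes, where 39.6% of all tested genes passed as lower. Among genes with a mean of at least 5 FPKM, tested alone, 10.7% did. Atp5c1 of complex V passed as lower with a pseudocount of 1 and in limma without the trend, where 34.2% and 33.5% of all tested genes did. At an unadjusted p-value under 0.05, 4 of the 14 were lower, against 56.5% of all tested genes. Its median FPKM was 5.72 and 8.36 in Ctrl 1 and Ctrl 3, and 4.70 and 3.72 in Nar 1 and Nar 3. As a share of FPKM outside haemoglobin it took 0.257% and 0.301% in the controls and 0.310% and 0.278% with Nar, so that the groups overlapped. Of the 14 genes, 13 lay above 0 with median-of-ratios scaling, against 2666 of all 5339 tested genes.

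Atp5b (NCBI Gene 11947, chr10:128083307-128090388), the catalytic beta subunit, had the highest mean level of the 74 tested members, with 58.02 and 86.57 FPKM in Ctrl 1 and Ctrl 3, and 60.33 and 52.96 in Nar 1 and Nar 3 (log2 fold change -0.33, limma adjusted p = 0.579). Atp5l, subunit g of the membrane part, was at 39.84, 85.14, 55.15 and 35.37 FPKM (log2 fold change -0.40, limma adjusted p = 0.549). Atp5h, subunit d of the peripheral stalk, was at 21.66, 36.33, 25.25 and 21.47 FPKM (log2 fold change -0.27, limma adjusted p = 0.660). In all 3 genes Nar 1 lay above Ctrl 1, so the groups overlapped. The lowest fold change of complex V was that of Atp5c1, the gamma subunit of the central stalk, at 5.41 and 6.92 FPKM in the controls and 2.89 and 2.45 with Nar (log2 fold change -1.17, limma adjusted p = 0.0544). In limma it passed with a pseudocount of 1 (adjusted p = 0.0498) and without the trend (adjusted p = 0.0486).

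Subunit c, whose ring turns in the membrane, is encoded by Atp5g1, Atp5g2 and Atp5g3, which give the same mature protein. Atp5g1 (NCBI Gene 11951, chr11:96072793-96075694) was at 1.06 and 0.90 FPKM in Ctrl 1 and Ctrl 3, and 1.16 and 1.47 in Nar 1 and Nar 3, and it was the only tested member with both Nar libraries above both controls (log2 fold change 0.39, SE 0.346, limma adjusted p = 0.344). Atp5g3 (NCBI Gene 228033, chr2:73908447-73912464) was at 2.99 and 3.92 FPKM in the controls and 1.65 and 1.67 with Nar (log2 fold change -1.0, SE 0.390, limma adjusted p = 0.0644). Neither passed on its own. Atp5g2 was listed at 0 in Ctrl 1, Ctrl 3 and Nar 1 and at 0.72 FPKM in Nar 3, which may be a failed estimate for a gene used by most cells, and Atp5s did not exceed 0.07 FPKM.

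A ratio of 2 genes within a library does not depend on how the library is scaled, apart from the pseudocount. The log2 ratio of Atp5g3 to Atp5g1 was 1.41 and 2.01 in Ctrl 1 and Ctrl 3, and 0.47 and 0.17 in Nar 1 and Nar 3, a difference of -1.39 between the group means. The groups did not overlap, and the gap between them was larger than the spread within either, although a two-sided p of 0.33 is the smallest an exact permutation test allows here. With each library left out in turn the difference ran from -1.68 to -1.09. The log2 ratio of Cox6b1 to Cox6b2 was 1.48 and 0.88 in the controls and 0.01 and 0.79 with Nar, -0.78 between the group means, with Ctrl 3 and Nar 3 nearly equal. Ratios to Cox4i2, Cox6a2, Cox7a1 and Cox8b rest on values at or near 0 and are not given. All these pairs share sequence, and a division of reads between copies was not tested.

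**Figure D3:**
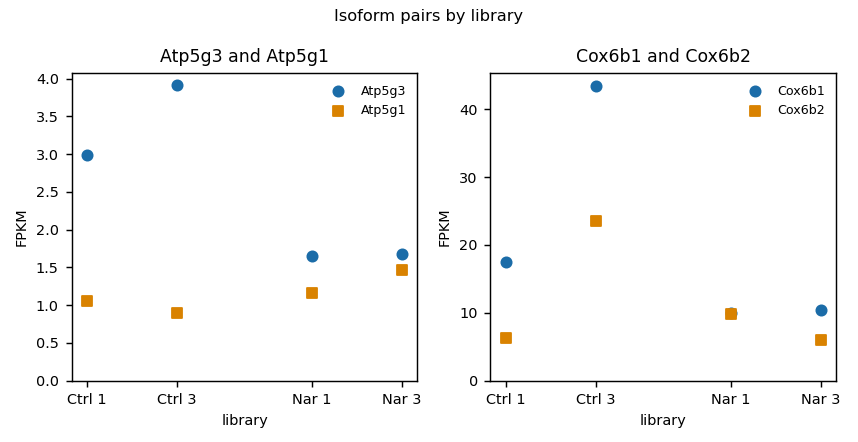
FPKM of Atp5g3 with Atp5g1 (left) and of Cox6b1 with Cox6b2 (right) in each library, on axes from 0. Atp5g3 lies at 2.99 and 3.92 in the controls and at 1.65 and 1.67 with Nar, while Atp5g1 lies between 0.90 and 1.47, and Cox6b1 and Cox6b2 meet in Nar 1.

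The difference between the controls went with transcript length among these genes. Over the 74 tested members, the Spearman correlation of the log2 difference, Ctrl 3 minus Ctrl 1, with transcript length was -0.47, against -0.0508 over 5151 tested genes with a length. All points share the same 2 libraries, and this is a description across genes. The 37 members with shorter transcripts (median 519 bases) had a median difference between the controls of 0.74 and 4 calls as lower, and the 37 with longer ones (median 815 bases) a median difference of 0.37 and 13 calls, where 39.6% of all tested genes passed as lower. The shorter and longer genes also differed in level, with a median over the genes' means of 5.4 and 2.56 FPKM. Between the Nar libraries, Nar 3 was the lower for 50 of the 74 (67.6%), against 69.1% of all tested genes. Whether transcript length or level had a part in the members' fold changes was not tested.

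**Figure D4:**
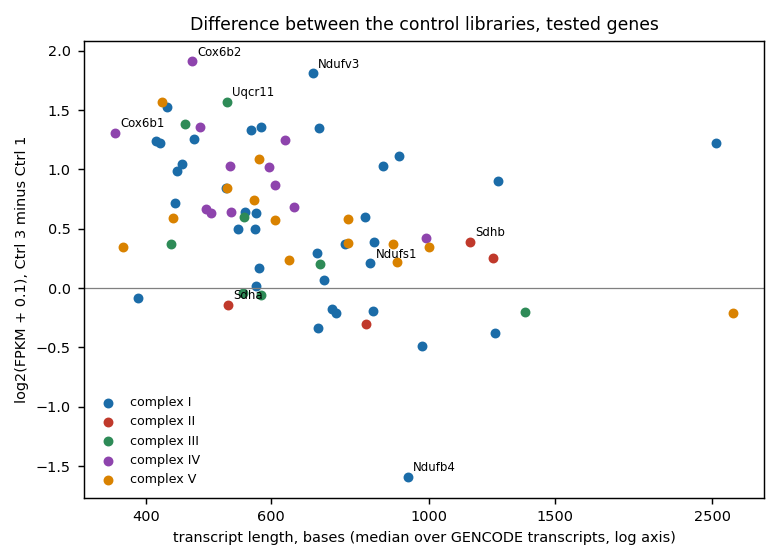
Log2 difference between the control libraries, Ctrl 3 minus Ctrl 1 on log2(FPKM + 0.1) (vertical axis), against the median length of each gene's GENCODE transcripts in bases (log axis) for the 74 tested members, coloured by complex. Most short genes lie above 0, the complex IV genes all do, and the 4 complex II genes lie near 0.

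Other genes of oxidative metabolism were read against the 39.6% of all tested genes that passed as lower and their median log2 fold change of -1.07, with no test of the difference. The list of subunits and carriers outside the symbols used had 2 of 8 tested genes lower (25%), with a median log2 fold change of -0.90. Those that fell were Slc25a5, an ADP/ATP carrier, and Cycs, cytochrome c. Cycs did not pass in limma with a pseudocount of 1 (adjusted p = 0.0579) or without the trend (adjusted p = 0.0643). With the replicate number as a block neither Slc25a5 nor Cycs passed (limma adjusted p = 0.0893 and 0.064). The most abundant were Atpif1, the inhibitor of the ATP synthase, at 19.56 and 38.15 FPKM in the controls and 19.42 and 14.29 with Nar (limma adjusted p = 0.274), and Usmg5, a small ATP synthase subunit, at 8.37 and 15.94 and then 5.37 and 4.82 FPKM (limma adjusted p = 0.0825).

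Of 48 assembly factors only 10 passed the minimum, and 2 of them (20%) fell, Surf1 for complex IV and Uqcc3 for complex III, with a median of -1.10 over the 10. Coa5 and Cox17, both for complex IV, were the most abundant and did not pass (limma adjusted p = 0.0736 and 0.133). In the tricarboxylic acid cycle 3 of 12 tested genes (25%) fell, Cs, Dlst and Dld, with a median of -0.95. Mdh2 and Ogdh, the most abundant, did not pass (limma adjusted p = 0.0813 and 0.626).

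Proteins of the mitochondrial ribosome, which makes the subunits of the mitochondrial genome, had 13 of 32 tested genes lower (40.6%) and a median of -1.06. Their most abundant genes were Mrpl32 (log2 fold change 0.62, limma adjusted p = 0.257) and Mrps21 (log2 fold change -0.55, limma adjusted p = 0.405). In mitochondrial protein import 4 of 10 fell, with a median of -1.01, and Tomm22 was among them (limma adjusted p = 0.0467, and 0.0965 with the replicate number as a block) while Tomm6 was not (limma adjusted p = 0.0542). Of 5 tested regulators of mitochondrial transcription and biogenesis, with a median of -0.99, Nrf1 alone passed, and Yy1 was at an adjusted p-value of 0.0523 in limma. Of 26 symbols searched for subunits of the mitochondrial genome 0 had values, so these subunits were not analysed here.

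Cytosolic ribosomal proteins, the protein part of the translation machinery outside mitochondria, had 5 of 85 tested genes lower (5.88%, against 39.6% of all tested genes) and a median of -0.71, close to complexes III, IV and V. The share of calls fell with level, and among genes with a mean of at least 5 FPKM, tested alone, it was 10.7%. Rpl41 and Rplp0, the most abundant, did not pass (limma adjusted p = 0.369 and 0.296). Their controls differed by a median of -0.07, whereas those of complex IV differed by 0.95. With median-of-ratios scaling their median turned to 0.46.

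Marker genes of blood cells moved over a wider range than the complexes. All 12 neutrophil markers fell, with a median log2 fold change of -3.67, and 3 of 5 monocyte markers did, with a median of -1.79. Of 5 natural killer cell markers 1 fell (median -1.18), and 0 of 6 platelet (median -1.13), 0 of 6 T cell (median -0.61) and 0 of 6 B cell markers (median -0.41) did. Erythroid genes other than haemoglobin had 0 of 16 lower and a median of 0.37, and 2 of 10 haemoglobin genes, Hba-a1 and Hba-a2, were higher. Of all tested genes 39.6% passed as lower and 0.187% as higher. The medians of the complexes, from -1.38 to -0.64, lay between those of the erythroid and the neutrophil markers. The part of blood cell composition in the members' values was not tested.

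**Figure D5:**
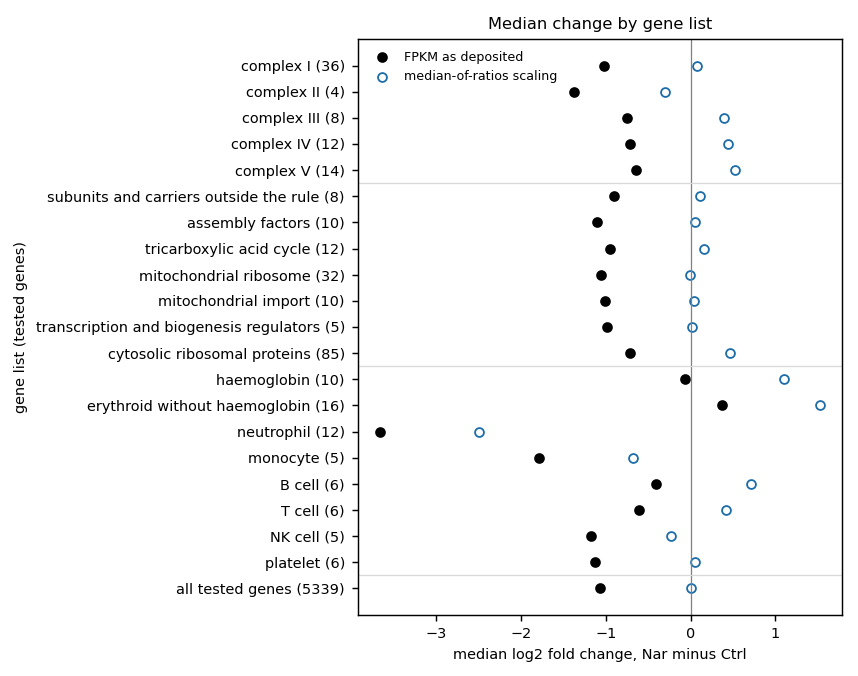
Median log2 fold change, Nar minus Ctrl (horizontal axis), of each complex, related gene lists, blood cell marker lists and all tested genes, with the number of tested genes in parentheses, in FPKM as deposited (black) and with median-of-ratios scaling (open blue). Neutrophil markers lie lowest at -3.67, erythroid genes highest at 0.37, and scaling moves complexes I, III, IV and V across 0 but not complex II.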

How the data were processed

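RNA of 2 Ctrl and 2 Nar blood libraries, grouped by sample labels, was analysed. The authors deposited FPKM values per gene. The submitters' processing notes name TopHat2, Cufflinks and GRCm38, and the study's methods name bowtie-2 and DEGseq. DEGseq needs read numbers, so limma was used. Every column was matched to a library (0 left over).

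Log2(FPKM + 0.1) was tested over the 5339 genes whose mean reached 0.5 FPKM in R 4.3.3 with limma 3.58.1 (eBayes with trend) and Benjamini-Hochberg adjustment over all of them, with a threshold of 0.05. Members had to reach that minimum too, which 74 of 82 did. The step was tested on simulated data. The smallest values showed no steps of whole reads, so depth is unknown.

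Members and lists were chosen with earlier results of these data known. Named members were the 3 most abundant of each complex, the 5 lowest and 5 highest fold changes, isoform pairs and untested members. Of each pathway list the 2 most abundant genes were named. Other genes were named after their values were seen. A member that the rule names is not reported here by name. Lengths and positions came from GENCODE vM21 (GRCm38), promoters from RefSeq. Plots used Python 3.11.15, pandas 2.3.3, numpy 2.4.6 and matplotlib 3.10.9.

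Tried in turn were pseudocounts of 1 and 0.01, no minimum, a minimum of 5 FPKM, rescaling to TPM, removal of haemoglobin, median-of-ratios scaling, no trend, a replicate block and each library left out.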

Additional observations from a re-analysis of the deposited data

How the results depend on the processing

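With median-of-ratios scaling, which levels the typical gene by construction, 0 members were lower, the members' median turned to 0.22 and those of complexes I, III, IV and V to 0.07, 0.39, 0.44 and 0.52, with complex II at -0.30. Fold changes turned for Atp5b (0.85), Atp5g3 (0.13), Atp5h (0.90), Atp5l (0.77), Cox4i1 (0.27), Cox6a1 (0.76), Cox6b2 (0.51), Cox6c (0.57), Cox7a2 (0.30), Cox7b (1.13), Cox8a (0.44), Ndufa1 (0.05), Ndufa3 (0.22), Ndufa4 (0.08), Sdha (0.33), Uqcr10 (0.55), Uqcr11 (0.47) and Uqcrh (0.83). After removal of haemoglobin and rescaling, 0 members were lower (3 unadjusted), against 4.54% of all tested genes. The members' median was then -0.39, against -0.61 for all tested genes. Those of complexes I to V were -0.54, -0.95, -0.21, -0.16 and -0.09, so that only complex II lay below all tested genes. Atp5b (0.24), Atp5h (0.29), Atp5l (0.16), Cox6a1 (0.15), Cox7b (0.53) and Uqcrh (0.22) turned. Without a minimum 0 of 80 members (25 unadjusted) and 0 of all 16382 genes were lower, and the members' median lay at -0.32 from that of all genes, in place of 0.14. With a mean of at least 5 FPKM it was 0 of 30 (3 unadjusted), against 10.7% of all 1083 genes. A pseudocount of 1 gave medians of -0.63, -0.78, -0.60, -0.66 and -0.57 for complexes I to V, against -0.62 for all tested genes. It gave -0.96 for the log2 ratio of Atp5g3 to Atp5g1, and a pseudocount of 0.01 gave -1.50 for complex II.

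With each library left out in turn, lower members numbered 0 each time. The members' median ran from -1.23 to -0.56, and from -0.04 to 0.39 relative to all tested genes, with -0.04 without Ctrl replicate 1. Medians ran from -1.27 to -0.68 for complex I, -1.64 to -1.0 for II, -0.95 to -0.39 for III, -1.28 to -0.34 for IV and -1.03 to -0.43 for V. Without Ctrl replicate 3 several fold changes turned positive, at the upper end of ranges of -0.64 to 0.10 for Atp5h, -0.95 to 0.15 for Atp5l, -0.92 to 0.10 for Cox6a1, -1.60 to 0.31 for Cox6b2, -1.23 to 0.02 for Cox6c, -0.54 to 0.48 for Cox7b and -1.48 to 0.09 for Uqcr11. Ndufb2 ran from -0.13, without Nar replicate 1, to 0.30, and Cox7b was at 0.34 without Nar replicate 3. The log2 ratio of Cox6b1 to Cox6b2 ran from -1.17 to -0.39.

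With the replicate number as a block, 14 members were lower, all among the 17, and 33.8% of all tested genes. Same-numbered libraries share only a number, and their deviations from group means had a correlation of -0.153 over 5339 genes. With the numbers crossed in the block, chosen after seeing the data as were the alternatives for ratios, 40 members and 60.1% of all tested genes were lower. Counts ran from 13 to 19 (17.6% to 25.7% of members, against 33.5% to 42.2% of all tested genes) with either pseudocount, TPM or no trend, and 0 members were higher under any alternative in limma (3 unadjusted with median-of-ratios scaling and 1 without a minimum). The causes were not tested. Depth is unknown, which limits genes under 1 FPKM.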
